A study of Mus musculus with 9 samples.

Results

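The genes described here are 46 mouse genes of glycolysis, glycogen turnover and the phosphocreatine and adenylate system, read out in muscle stem cells (satellite cells) as they leave the muscle, divide in culture and fuse into myotubes. They were picked by gene symbol and cover glucose uptake, each step from hexokinase to lactate, the storage and breakdown of glycogen, creatine kinase, adenylate kinase and AMP deaminase. All 46 were found among the 45706 genes of the deposited table. Of the symbols, 12 stand for forms found chiefly in striated muscle and 12 for forms of many or other tissues. The others were placed in neither set, though Hk2, Ldha and Slc16a3 are compared with a partner.

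RNA was sequenced from satellite cells of wild-type C57Bl6 mice that were 12 to 20 weeks old, at 3 stages with 3 libraries each from different animals. Freshly isolated cells had not been cultured. Proliferating cells had grown for at least 3 days in medium with 20% FCS and human FGF-2 at 2.5 ng/ml. Myotubes had been through that culture and then 6 days in 2% horse serum, and the labels name this stage differentiating. The step from proliferating cells to myotubes is called fusion below for short. It also spans the change of medium and the 6 days of differentiation, which cannot be told apart from fusion itself. No group carries a mutation, a transgene or a drug, and every myotube was formed in a dish without nerve or load. Values are the deposited gene counts after the authors' scaling and rounding, called normalized counts below. Each is given for replicates 1, 2 and 3 in that order.

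Glycolysis splits glucose to pyruvate in the cytosol. Hexokinase traps the sugar, phosphofructokinase commits it, and the steps from aldolase to pyruvate kinase return ATP, after which lactate dehydrogenase restores NAD. Striated muscle keeps its own isoform at several of these steps, stores glucose as glycogen, and buffers ATP with phosphocreatine. Dividing cells of many tissues use glycolysis for building blocks as well as for ATP.

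The libraries held an estimated 12.0 to 24.3 M reads assigned to genes, and all normalized totals lay between 17.8 and 26.2 M. The satellite cell list (Pax7, Myf5, Vcam1, Itga7, Cd34 and Calcr) summed to 40253 to 44317 normalized counts in freshly isolated cells and 9624 to 10270 in myotubes, and the differentiated muscle list (Myog, Myh3, Acta1, Actc1 and Tnnt1) to 457 to 1983 and 614648 to 715767. In proliferating cells the latter list ran from 9868 in replicate 1 to 57881. The dividing myoblast list (Myod1, Mki67, Ccnb1 and Cdk1) summed to 5118 to 6946, 48103 to 51746 and 15689 to 22396 over the 3 stages, so cycling markers remained in the myotube libraries, with Mki67 at 7550 to 13203 against 66 to 471 in fresh cells. That replicate was the lowest of its stage for 24 of the 46 genes. Gm26917, a non-coding RNA gene, held 22.2% of freshly isolated replicate 1 but 10.6% and 11.2% of replicates 2 and 3. The 10 adult myofibre markers, which RNA of fibre fragments would carry, summed to 3283 to 4192 in freshly isolated cells (2178 to 2708 of it Actn3), 4682 to 15133 in proliferating cells and 270507 to 380268 in myotubes. None of these 10 was at 0 in all libraries of a stage. Among other cell types, the fibroblast list summed to 2773 to 3774, 39 to 47 and 645 to 850 over the stages. Most of it was Dpt in fresh cells (2449 to 3554, with Pdgfra at 4 to 9) and Col1a1 in myotubes (631 to 834). The leukocyte list summed to 662 to 689, 65 to 89 and 245 to 260, most of it Cd68 in fresh cells (549 to 629) and Itgam in myotubes (213 to 229, with Cd68 at 21 to 25). The part of such cells or fragments in the results below was not tested. In bulk RNA, fewer cells of a type and less RNA per cell cannot be told apart.

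As a sum, the 46 genes took a growing share of the library total along the course. Summed, they made up 0.242%, 0.265% and 0.277% of the normalized total in freshly isolated cells, 0.66%, 0.717% and 0.686% in proliferating cells and 1.11%, 1.03% and 1.24% in myotubes. The stages did not overlap. Genes from aldolase to pyruvate kinase held most of the sum in myotubes, at 0.770%, 0.714% and 0.865%. Not every role gained. The uptake, upper glycolysis and PFKFB groups each held a smaller share in every myotube library than in any freshly isolated one. Lengths are those of all annotated exons of a gene merged, which can exceed a transcript. Ranks and shares per kilobase are thus approximate and depend on the annotation. Aldoa, Pkm and Ldha were among the 5 most abundant members per kilobase of exon at every stage. Hexokinase was among the 5 only in freshly isolated cells, with Hk2 in place 3 and Hk1 in place 5, while Eno3 held place 3 in proliferating cells and place 2 in myotubes.

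Of the 46 genes, 44 reached 10 normalized counts in at least 3 libraries and were tested with limma, with p-values adjusted over all 17291 genes tested. Ckmt1 and Fbp2 were below this filter. Ppp1r3a, Ppp1r3c, Ckmt2 and Pygl reached it only with myotube libraries (Pygl also only with freshly isolated ones). The first 3 had to be higher in myotubes to enter the test, so the values of all 4 are a description. From freshly isolated to proliferating cells 20 members were higher, 16 lower and 8 not called at an adjusted p below 0.05. The share of all 17291 genes was 37.6% higher and 35.7% lower, or 73.3% in either direction. From proliferating cells to myotubes 25 were higher, 11 lower and 8 not called, against 28.6% higher, 25.5% lower and 54.1% either way over all genes. Of the 40 members that reached the filter without myotubes 22 were higher and 11 lower, against 27.5% higher among the 16434 such genes. Between myotubes and freshly isolated cells 24 were higher and 11 lower, against 40.2%, 37.3% and 77.6% over all genes. Of the same 40 members 21 were higher and 11 lower, against 38.9% higher among the 16434 genes. The libraries of the 2 stages did not overlap for 34, 39 and 35 of the 44 members, against 74%, 70.9% and 78.7% of all genes. The 39 and the 35 include Ppp1r3a, Ppp1r3c and Ckmt2, which had to be higher in myotubes. With 54.1% or more of all genes called in each comparison, a call alone sets a member little apart, so sizes and isoforms are given below. The median log2 change of the tested members was 0.11, 0.71 and 1.57 in the 3 comparisons, and that of all genes 0.07, 0.04 and 0.10. Over the 40 members it was 0.50 at fusion and 1.15 between myotubes and freshly isolated cells.

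**Figure D1:**
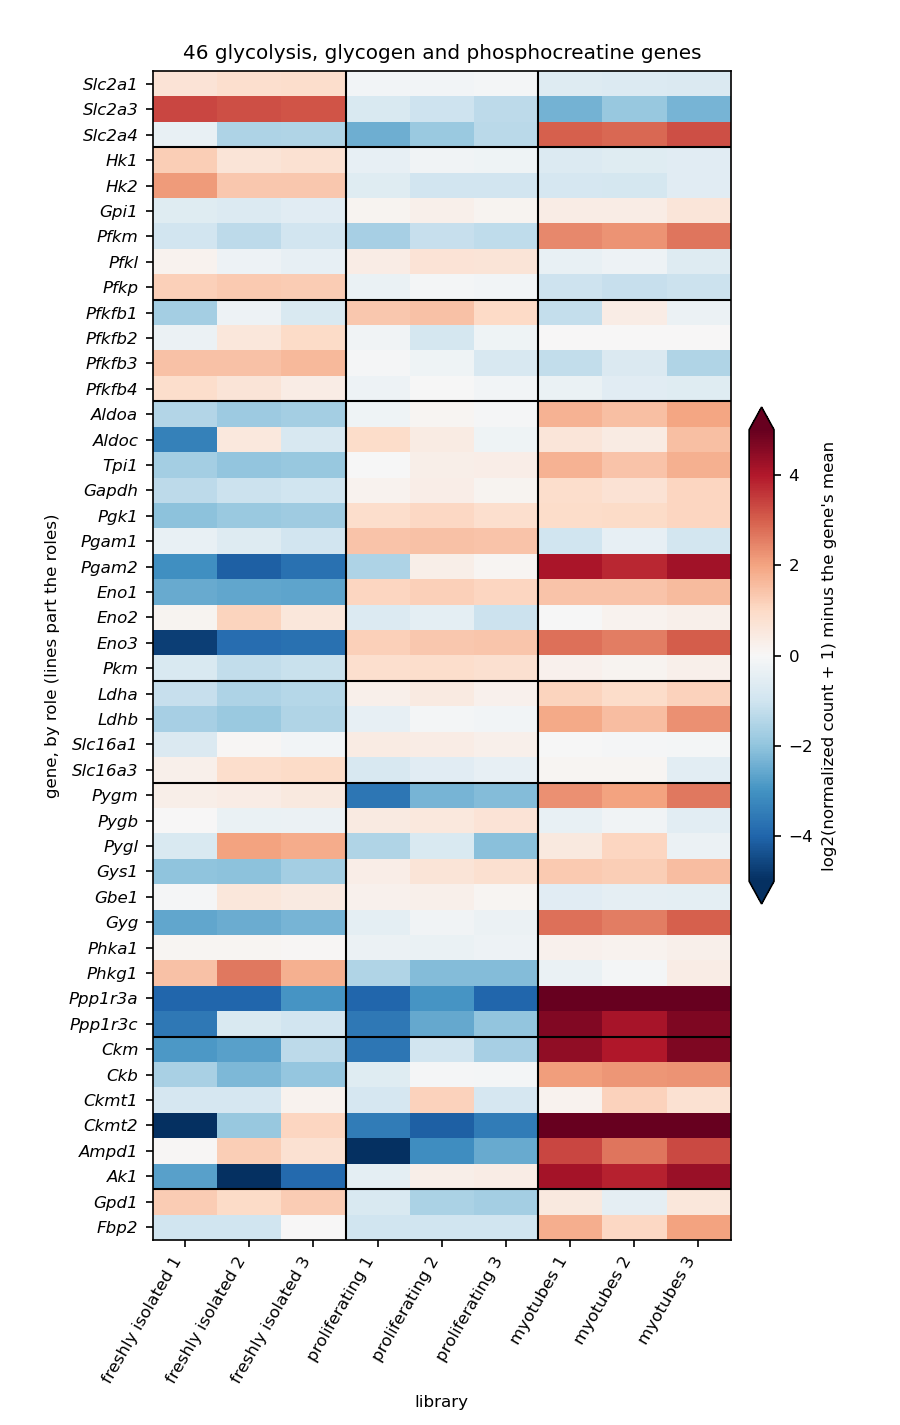
Heat map of the 46 genes (rows, grouped by role) in the 9 libraries (columns). Colour is log2(normalized count + 1) minus the gene's mean over the 9 libraries, clipped at 5 either way; the block from Aldoa to Ldhb is mostly blue in freshly isolated cells and mostly red in myotubes, whereas Hk1, Hk2, Slc2a1, Slc2a3 and Pfkp run the other way.

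Muscle forms rose at fusion, while most of their counterparts fell or were not called. Counted over the genes that reached the filter without myotubes, 9 of 9 muscle forms were higher in myotubes than in proliferating cells, with a median log2 change of 4.39. Of 10 such forms of many or other tissues 3 were higher (Ckb, Ldhb and Eno1), 6 were lower (Pgam1, Pfkl, Pygb, Pfkp, Slc2a1 and Hk1) and Slc16a1 was not called, with a median of -0.48. The median over the 16434 genes was -0.01. A log2 change above 3 was reached by 8 of the 40 members (20%), against 2.48% of the 16434 genes and 3.88% of all 17291. Of these 8, 6 were muscle forms, none was a form of other tissues, and the remaining ones were Ak1 and Gyg. Between freshly isolated cells and myotubes the limit was passed by 13 of the 40 (8.85% of such genes, and 10.4% of all 17291), and between freshly isolated and proliferating cells by 4 of the 44 tested members (6.48% of all genes). The first step of the course was different. From freshly isolated to proliferating cells 2 muscle forms rose (Eno3 and Pgam2), 4 fell (Ampd1, Phkg1, Pygm and Phka1) and 5 were not called, while the other forms split into 7 higher and 4 lower.

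**Figure D2:**
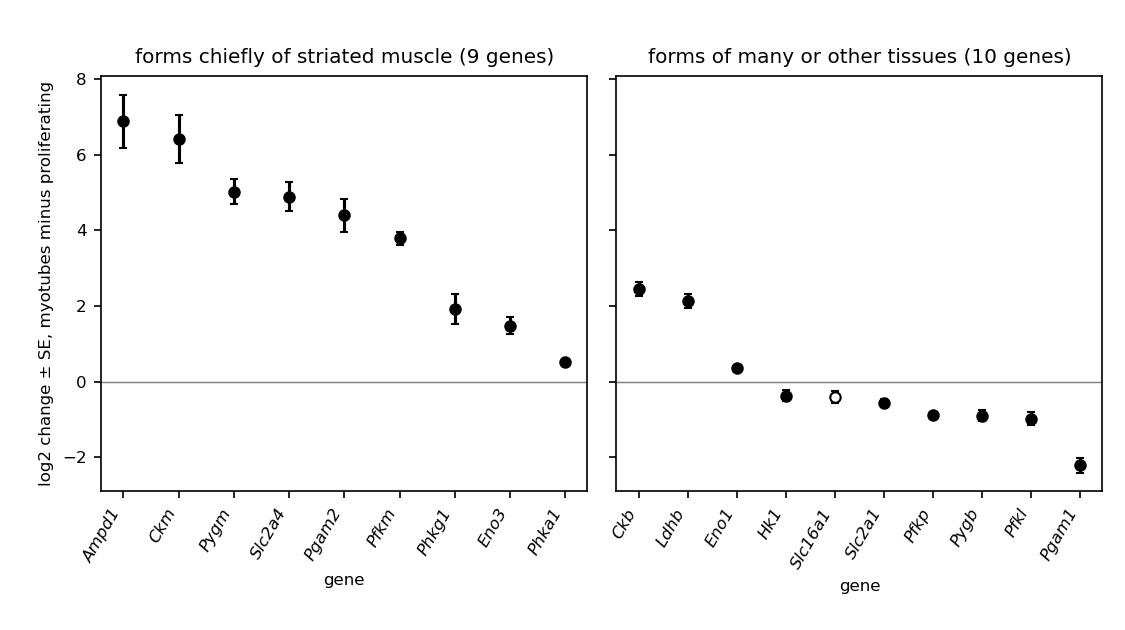
Log2 change from proliferating cells to myotubes with its limma standard error, for 9 muscle forms (left) and 10 forms of many or other tissues (right) that reached the filter without myotubes. Filled circles passed an adjusted p below 0.05 and open circles did not; these muscle forms lie above 0, from Phka1 at 0.51 to Ampd1 at 6.89, and the other forms run from -2.22 for Pgam1 to 2.44 for Ckb.

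The sequence before the start site differed between the 2 sets in one feature that their choice did not use, though genes of neither set shared it. CAGCTG is one spelling of the E-box CANNTG, the motif bound by myogenic factors such as MyoD and myogenin. RefSeq promoter entries (GRCm38.p6) were found for 42 of the 46 genes, not for Gpd1, Slc2a3, Ampd1 and Slc2a4. Within 250 bases before a start, CAGCTG (the same on both strands) stood in a promoter of 7 of 10 muscle-form genes and of 0 of 12 other-form genes, against 14.7% of all 27025 genes with an entry. Counted by promoter, these were 7 of 13 (53.8%), 0 of 16 and 13% of 32851. The 7 genes were Pgam2, Pygm, Ckm, Phka1, Ppp1r3a, Ckmt2 and Fbp2. They are thus not all among the muscle forms counted above, as Ppp1r3a and Ckmt2 reached the filter only with myotubes and Fbp2 was not tested. Over all members CAGCTG stood in a promoter of 14 of 42 genes (33.3%). It was thus not confined to muscle forms, as Ak1, Gpi1, Gys1, Pfkfb1, Pfkfb2, Pkm and Ppp1r3c, in neither set, held it too. The wider CANNTG, which includes every CAGCTG, stood in 12 of 13 muscle-form promoters, 5 of 16 others and 66.2% of all. A loose form of the MEF2 consensus, with any base in its middle, stood in 2 of 13, 2 of 16 and 3.2%. The stricter consensus itself was not searched for. ACGTG, the core of the site of hypoxia-inducible factors, was searched on both strands and stood in 22 of 63 promoters of members (34.9%) against 16.6% of all, with 4 of 13 in muscle forms and 5 of 16 in the others. A match is a description of letters, not a bound site, and its absence in this window tells nothing of a factor.

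The 250 bases before the RefSeq start are shown for the genes below. Pgam and Pyg are 2 of the families whose muscle and general forms moved in opposite directions at fusion. Ckm and Ppp1r3a are muscle genes nearly silent before it, and Eno3 is a muscle form without CAGCTG here. Capitals mark CAGCTG and the rest is in lower case, each written 5′ to 3′ on the gene's strand. Pgam2 is at chr11:5803797-5804046 (minus strand), Pgam1 at chr19:41911621-41911870 (plus), Pygm at chr19:6384158-6384407 (plus), Pygb at chr2:150786546-150786795 (plus), Ckm at chr7:19410844-19411093 (plus), Ppp1r3a at chr6:14755275-14755524 (minus) and Eno3 at chr11:70656926-70657175 (plus).
Pgam2: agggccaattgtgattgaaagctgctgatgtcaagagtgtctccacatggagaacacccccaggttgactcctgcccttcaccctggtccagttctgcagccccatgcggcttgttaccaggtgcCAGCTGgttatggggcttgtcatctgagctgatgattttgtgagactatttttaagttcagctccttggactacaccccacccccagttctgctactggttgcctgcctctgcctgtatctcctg
Pgam1: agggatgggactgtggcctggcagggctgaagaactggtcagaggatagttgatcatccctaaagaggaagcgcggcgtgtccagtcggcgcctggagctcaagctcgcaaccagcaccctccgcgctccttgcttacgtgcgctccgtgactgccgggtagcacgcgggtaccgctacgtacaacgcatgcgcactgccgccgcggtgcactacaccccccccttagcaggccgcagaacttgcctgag
Pygm: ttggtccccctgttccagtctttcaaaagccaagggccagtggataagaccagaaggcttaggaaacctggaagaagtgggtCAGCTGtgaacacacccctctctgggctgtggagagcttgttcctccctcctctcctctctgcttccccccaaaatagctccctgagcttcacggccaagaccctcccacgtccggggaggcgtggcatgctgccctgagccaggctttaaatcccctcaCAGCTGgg
Pygb: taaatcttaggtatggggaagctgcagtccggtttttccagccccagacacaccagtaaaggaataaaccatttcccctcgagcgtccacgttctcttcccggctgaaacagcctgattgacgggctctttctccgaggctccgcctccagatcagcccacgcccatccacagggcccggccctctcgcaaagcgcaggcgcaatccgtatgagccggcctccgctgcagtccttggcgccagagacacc
Ckm: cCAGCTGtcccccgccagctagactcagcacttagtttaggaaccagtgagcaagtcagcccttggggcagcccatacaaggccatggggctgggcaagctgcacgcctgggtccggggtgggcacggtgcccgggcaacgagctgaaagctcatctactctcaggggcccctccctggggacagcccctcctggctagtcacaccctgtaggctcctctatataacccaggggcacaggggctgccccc
Ppp1r3a: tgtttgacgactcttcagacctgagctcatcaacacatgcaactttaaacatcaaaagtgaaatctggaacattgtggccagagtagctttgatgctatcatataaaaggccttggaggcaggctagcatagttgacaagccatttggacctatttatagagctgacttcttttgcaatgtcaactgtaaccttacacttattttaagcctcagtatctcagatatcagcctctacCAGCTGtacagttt
Eno3: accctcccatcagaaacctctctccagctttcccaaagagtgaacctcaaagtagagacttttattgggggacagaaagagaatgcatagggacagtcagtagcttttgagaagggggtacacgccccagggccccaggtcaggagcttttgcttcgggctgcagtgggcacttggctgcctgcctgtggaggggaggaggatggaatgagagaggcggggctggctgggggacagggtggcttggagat
The CAGCTG of Pgam2 begins 125 bases before the start, those of Pygm 168 and 8 bases, that of Ckm 249 bases and that of Ppp1r3a 14 bases. Pgam1 and Pygb hold no CANNTG in this stretch, and Eno3 holds 1. Eno1, not printed, holds 2 in the first of its promoter entries and 0 in the others. Phosphofructokinase, also not printed, moved in opposite directions at fusion too. There Pfkm holds no CAGCTG in any promoter entry, while Pfkl holds 3 CANNTG and Pfkp 0. The RefSeq start of Ckm lies inside the longer gene that GENCODE annotates.

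A common scaling factor cancels in a ratio within a library, apart from the added 1, whereas quantile normalization does not cancel. For 12 pairs the log2 ratio of the first to the second gene was taken in each library (the muscle form first, save that Hk2, Ldha and Slc16a3 are in neither set) and tested over the 3 stages with an exact permutation test (1680 arrangements, smallest possible p 0.00357), adjusted over the 12 pairs. Differences between 2 stages rest on 3 libraries against 3, where an exact permutation test cannot go below p = 0.1, so they are given as values. The ratio differed over the stages for 11 of the 12 pairs. In 10 of 12 pairs it lay higher in every myotube library than in every proliferating library. The exceptions were Hk2/Hk1, whose libraries overlapped, and Ldha/Ldhb, which was lower in myotubes. Both counts include Ckmt2/Ckmt1, which is only a description, as Ckmt2 reached the filter only with myotube libraries and Ckmt1 was below it. The 10 pairs also include Pygm/Pygl, whose second gene was near the floor.

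**Figure D3:**
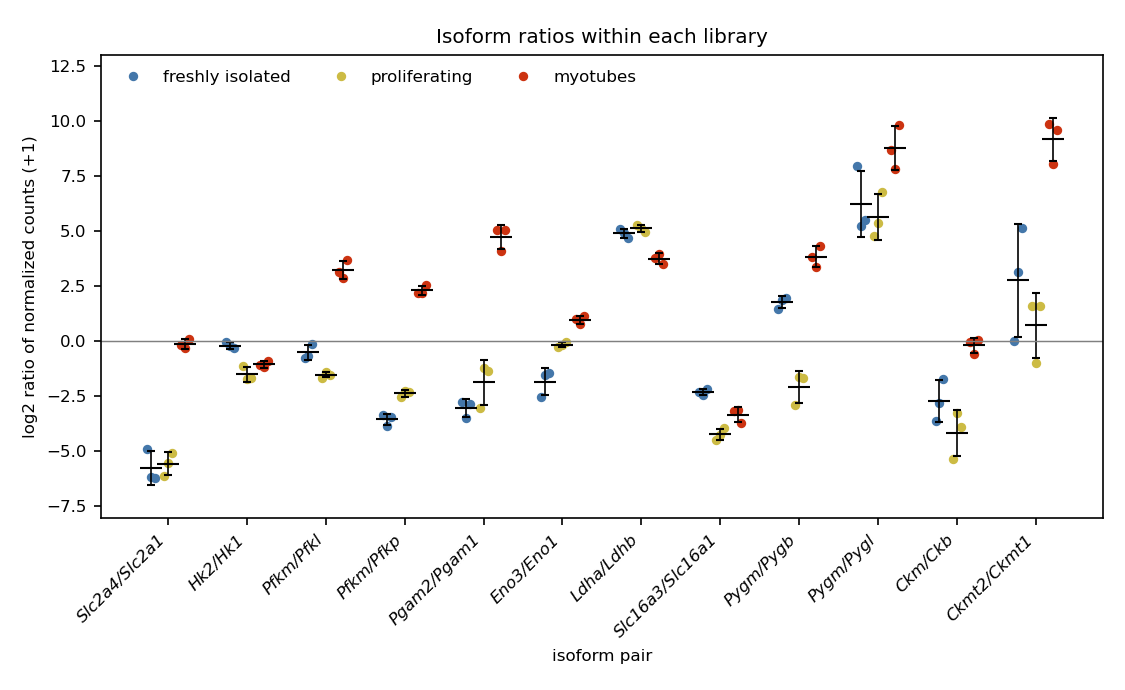
Log2 ratio of the first to the second gene of each pair (normalized count + 1) by stage. Points are libraries, horizontal ticks are means and bars are SD (n = 3); the largest gaps between proliferating cells and myotubes are 8.46 for Ckmt2/Ckmt1, where Ckmt1 is near 0 throughout, and 6.61 for Pgam2/Pgam1.

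Glucose entry passed from Slc2a1 and Slc2a3 to a mixture with Slc2a4. Slc2a1 (GLUT1), the basal transporter, had 1708, 1884 and 1978 normalized counts in freshly isolated cells, 965, 967 and 1002 in proliferating cells and 680, 671 and 643 in myotubes. It fell at each step, by 0.92 ± 0.09 and then by 0.56 ± 0.09 (log2 ± SE, adjusted p = 5.2e-06 and 0.00038), with no overlap between stages. Slc2a3 (GLUT3), a high-affinity transporter best known from neurons, had 1667, 1556 and 1479 in freshly isolated cells, 97, 79 and 66 in proliferating cells and 31, 44 and 32 in myotubes. From freshly isolated cells to myotubes it fell by 5.43 ± 0.20 on the log2 scale (adjusted p = 6.6e-09), the largest loss among the members. Slc2a4 (GLUT4, chromosome 11, 69942539 to 69948188), the insulin-responsive transporter of muscle and fat, had 57, 25 and 26, then 13, 20 and 29, then 598, 551 and 701. Its first change was not called (-0.74 ± 0.37, adjusted p = 0.1), and its rise at fusion was 4.89 ± 0.37 (adjusted p = 4.0e-06). Per kilobase of exon the 3 transporters together fell from 756 ± 21.2 to 296 ± 6.25 and stood at 372 ± 16.8 in myotubes (mean ± SD, n = 3), where Slc2a4 made up 47.6% ± 3.75 of them, against 1.38% ± 0.74 and 2% ± 0.74 at the earlier stages. The log2 ratio Slc2a4/Slc2a1 was -5.75 ± 0.75, -5.57 ± 0.52 and -0.11 ± 0.21 (exact permutation test over 3 stages, adjusted p = 0.0312).

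Both hexokinases were highest in the freshly isolated cells. Hk2, the form that muscle induces with insulin, had 7504, 4352 and 4364 there, 1144, 876 and 886 in proliferating cells and 952, 938 and 1178 in myotubes. Hk1, the housekeeping form, had 7661, 5112 and 5424, then 2451, 2903 and 2824, then 2019, 2108 and 2172. Freshly isolated replicate 1 was the highest of its stage for both. In proliferating cells Hk2 fell by 2.44 ± 0.21 and Hk1 fell by 1.13 ± 0.14 on the log2 scale (adjusted p = 2.4e-06 and 4.3e-05). At fusion Hk2 was not called (0.08 ± 0.21, adjusted p = 0.76). Hk1 fell by 0.37 ± 0.14 (adjusted p = 0.049), a call lost without freshly isolated replicate 3, without proliferating replicate 2 or 3 and without any 1 myotube library (adjusted p = 0.055 to 0.14). The sum of both per kilobase was 1617 ± 467, 482 ± 4.53 and 417 ± 30.2. Hk2 had a lower share in myotubes than in freshly isolated cells. It was 55.6%, 33.7% and 40.9% of the pair, and the log2 ratio was -0.19 ± 0.15, -1.50 ± 0.35 and -1.04 ± 0.15 (exact permutation test, adjusted p = 0.0107). Gpi1, glucose-6-phosphate isomerase, rose from 2647 ± 114 to 4630 ± 182 (change 0.81 ± 0.09) and stood at 5595 ± 522 in myotubes.

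Phosphofructokinase exchanged its main isoform at fusion. Pfkm (chromosome 15, 98092589 to 98132451), the muscle form, had 527, 409 and 530 in freshly isolated cells, 319, 466 and 427 in proliferating cells and 5356, 4843 and 6521 in myotubes. The earlier stages overlapped (-0.28 ± 0.17, adjusted p = 0.16), and the rise at fusion was 3.79 ± 0.17 (adjusted p = 3.7e-07). Pfkp, the platelet form, went the other way, with 5416, 5854 and 5667, then 1868, 2207 and 2124, then 1156, 1058 and 1118, falling by 1.45 ± 0.09 and 0.89 ± 0.09. Pfkl, the liver form, peaked in between, with 878, 640 and 580, then 999, 1236 and 1217, then 597, 653 and 497 (changes 0.73 ± 0.17 and -0.98 ± 0.17). Per kilobase Pfkm thus made up 21.7% ± 2.68, 26.9% ± 1.87 and 90.6% ± 1.74 of the family, and Pfkp 62.7%, 34.6% and 4.55%. The summed level was 672 ± 19.4, 448 ± 55.5 and 1839 ± 247. The log2 ratios Pfkm/Pfkl and Pfkm/Pfkp rose from proliferating cells to myotubes by 4.77 and 4.68 (exact permutation test over 3 stages, adjusted p = 0.00857 for both). Pfkm overlaps Senp1 and Pfkp overlaps Pitrm1 on the opposite strand, and how strand was set in the counting is not given in the sources.

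The bifunctional PFKFB enzymes, which set the level of the phosphofructokinase activator fructose 2,6-bisphosphate, were low in myotubes. Pfkfb3, whose kinase activity favours glycolysis, had 839, 843 and 935 in freshly isolated cells, 294, 262 and 173 in proliferating cells and 131, 184 and 106 in myotubes. It fell by 1.87 ± 0.24 and again by 0.79 ± 0.24, the second time with overlapping libraries (adjusted p = 0.017, and 0.051 to 0.069 without proliferating replicate 1 or 2 or myotube replicate 1 or 3). Pfkfb4 fell from 268 ± 44.5 to 157 ± 12.1 (change -0.76 ± 0.18) and stood at 122 ± 13.6. Pfkfb2 was called lower at the first step from 191 ± 76.7 to 102 ± 26.3, with overlapping libraries (adjusted p = 0.035), a call lost without freshly isolated replicate 2 or 3, proliferating replicate 2 or myotube replicate 1 or 2 (adjusted p = 0.0503 to 0.134). Pfkfb1, known from liver and muscle, had 9, 26 and 18, then 82, 87 and 64, then 13, 41 and 25, so it was highest in dividing cells at a low level. It rose by 2.18 ± 0.48 and fell by 1.65 ± 0.48 (adjusted p = 0.0021 and 0.015), and without myotube replicate 1 the latter change was -1.24 (adjusted p = 0.063). None of the 4 was called higher in myotubes than in freshly isolated cells.

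The steps from aldolase to pyruvate kinase carried most of the gain in dividing cells. Of their 11 genes 9 rose from freshly isolated to proliferating cells, Eno2 fell and Aldoc was not called, against 37.6% higher and 35.7% lower over all genes. The largest rise was that of Eno3 (chromosome 11, 70657202 to 70662513), the muscle enolase, with 155, 285 and 304, then 9071, 10203 and 10469, then 27040, 23515 and 33114. It rose by 5.37 ± 0.23 in proliferating cells (adjusted p = 2.0e-08) and by 1.48 ± 0.23 at fusion. Eno1, the general enolase, followed with 889, 824 and 819, then 10751, 11493 and 10591, then 13428, 13599 and 15027 (3.70 ± 0.08, adjusted p = 3.9e-10). Both enolases rose in the dividing cells. The family sum per kilobase went from 330 ± 47.2 to 7747 ± 451 and 18665 ± 2940, with Eno3 at 42.4%, 73.5% and 85.8%. In proliferating cells Eno1 had the higher mean count (10945 against 9914), so the 73.5% rests on merged exon lengths of 5379 bases for Eno1 and 1739 for Eno3. Eno1 gained 0.36 ± 0.08 at fusion, which was not called with libraries rescaled to equal totals (0.18, adjusted p = 0.16) or quantile normalized (0.08, adjusted p = 0.36). The log2 ratio Eno3/Eno1 was -1.82 ± 0.60, -0.14 ± 0.12 and 0.98 ± 0.18 (exact permutation test, adjusted p = 0.00857). Eno2, the neuronal form, stayed low at 144 ± 49.1, 54 ± 11.1 and 100 ± 10.1.

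Phosphoglycerate mutase passed almost wholly to its muscle form. Pgam1, the general form, had 301, 246 and 199 in freshly isolated cells, 1039, 1076 and 1048 in proliferating cells and 192, 294 and 205 in myotubes. It rose by 2.10 ± 0.19 and then fell by 2.22 ± 0.19 (adjusted p = 3.8e-06 and 7.8e-06), and myotubes and fresh cells were not called apart (-0.12 ± 0.19). Pgam2 (chromosome 11, 5801640 to 5803733), the muscle form, had 44, 21 and 27, then 127, 463 and 407, then 6366, 5141 and 6873. It rose by 3.26 ± 0.44 and 4.39 ± 0.44 (adjusted p = 7.2e-05 and 2.0e-05). Without proliferating replicate 1, the library lowest in differentiated muscle markers, these were 3.85 and 3.81. Pgam2 made up 22.2% ± 4.78, 40.2% ± 15.5 and 98.4% ± 0.64 of the pair per kilobase. The log2 ratio moved from -3.02 ± 0.41 through -1.87 ± 1.00 to 4.74 ± 0.54 (exact permutation test, adjusted p = 0.0143). The promoter of Pgam2 printed above holds 5 CANNTG and that of Pgam1 none.

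**Figure D4:**
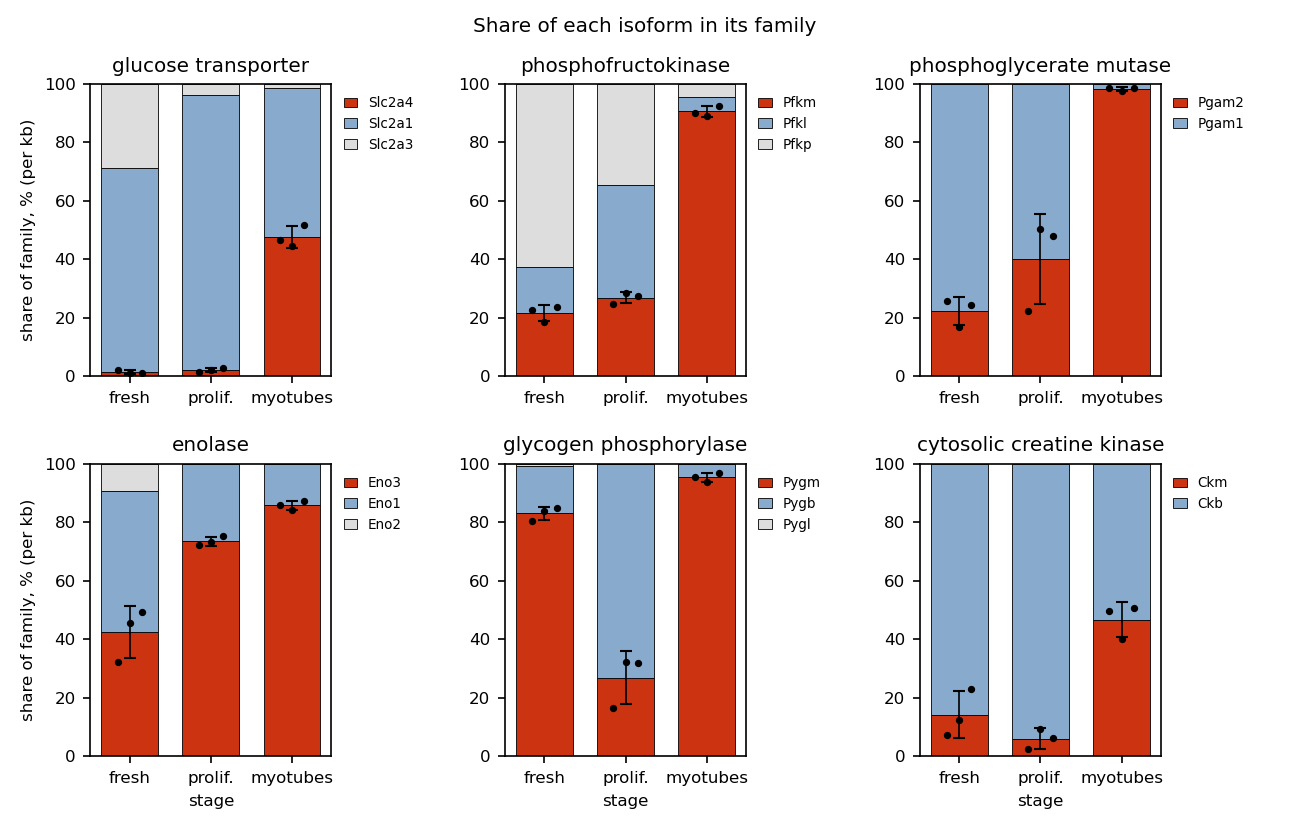
Share of each isoform in the summed normalized count per kilobase of merged exon of its family, by stage (fresh, freshly isolated, and prolif., proliferating). Red is the muscle form, with its 3 libraries as points and its SD as a bar; it reaches 90.6% for Pfkm, 98.4% for Pgam2, 85.8% for Eno3 and 95.3% for Pygm in myotubes, but 47.6% for Slc2a4 and 46.7% for Ckm.

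The other genes of these steps have 1 main form. Aldoa, the aldolase of muscle and most tissues, went from 6030 ± 749 to 18183 ± 2014 and 63977 ± 10733 and was the most abundant member per kilobase in myotubes (changes 1.59 ± 0.15 and 1.81 ± 0.15, the latter 1.02 with quantile normalization). Tpi1, triose phosphate isomerase, rose with it from 677 ± 66.3 to 2844 ± 353 and 7710 ± 1050. Gapdh, glyceraldehyde-3-phosphate dehydrogenase and a common reference gene in PCR, rose 4.03-fold from freshly isolated cells to myotubes, from 2894 ± 320 to 7337 ± 522 and 11680 ± 1417. Pgk1, phosphoglycerate kinase, had 266, 299 and 315, then 1994, 2249 and 1952, then 2075, 2100 and 2277. It rose by 2.81 ± 0.10 in dividing cells (adjusted p = 6.3e-09) and was not called at fusion (0.06 ± 0.10, adjusted p = 0.64). Pkm, pyruvate kinase, was highest in proliferating cells at 38443 ± 1138, against 10601 ± 1892 before and 24480 ± 826 after (changes 1.87 ± 0.12 and -0.65 ± 0.12, adjusted p = 3.6e-07 and 0.0012, or 2.71 and -1.46 with quantile normalization). Counts per gene do not separate its M1 and M2 splice forms. Aldoc, the brain aldolase, stayed between 0 and 29. It was called higher in myotubes than in fresh cells at overlapping values (2.07 ± 0.85, adjusted p = 0.046), with 0.99 (adjusted p = 0.11) without freshly isolated replicate 1, and the call was also lost without any other 1 library except freshly isolated replicate 2. Gapdh, Aldoa, Eno1, Ldha, Pgam1, Pkm, Pgk1 and Tpi1 have near-identical copies in the table, 164 for Gapdh, so their values are uncertain to the extent that reads were split.

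Both lactate dehydrogenase genes rose, while the 2 lactate carriers moved apart in dividing cells. Ldha, the form that favours lactate, had 3303, 2517 and 2712, then 8585, 9795 and 8487, then 15574, 13664 and 16303. Ldhb, the heart form that favours pyruvate, had 94, 82 and 103, then 221, 275 and 270, then 1112, 862 and 1443. Both rose at each step, and at fusion Ldhb gained 2.13 ± 0.20 and Ldha 0.76 ± 0.12 (adjusted p = 1.1e-05 and 0.00038). The log2 ratio Ldha/Ldhb was 4.92 ± 0.21, 5.13 ± 0.15 and 3.76 ± 0.25 (exact permutation test, adjusted p = 0.0107), the 1 pair whose first gene lost ground to its partner at fusion, although Ldha remained 86.5% ± 2.03 of the pair per kilobase. Slc16a1 (MCT1), the lactate carrier of oxidative cells, had 1606, 2724 and 2387, then 3505, 3457 and 3144, then 2584, 2515 and 2492. It rose by 0.62 ± 0.16 in proliferating cells (adjusted p = 0.0059), and its later change was not called (-0.41 ± 0.16, adjusted p = 0.056) though these libraries did not overlap. Slc16a3 (MCT4), the exporter of glycolytic fibres, had 325, 496 and 535, then 157, 183 and 202, then 289, 293 and 189, and it fell by 1.29 ± 0.23 (adjusted p = 0.00056) before an uncalled change of 0.49 ± 0.23. The log2 ratio Slc16a3/Slc16a1 was -2.30 ± 0.15, -4.22 ± 0.26 and -3.32 ± 0.34 (exact permutation test, adjusted p = 0.00857). Slc16a1 stayed above Slc16a3 in every library, also per kilobase.

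Glycogen phosphorylase had its muscle form as the main one already in every freshly isolated library. Pygm (chromosome 19, 6384399 to 6398459), which frees glucose-1-phosphate from glycogen in muscle, had 1253, 1302 and 1429 there, 81, 204 and 222 in proliferating cells and 4969, 4079 and 6347 in myotubes. It fell by 3.09 ± 0.33 and rose by 5.02 ± 0.33 (adjusted p = 1.2e-05 and 1.8e-06). Myotubes ended 1.93 ± 0.33 above the fresh cells. Pygb, the brain form, ran opposite at a smaller scale with 451, 352 and 364, then 613, 637 and 709, then 343, 394 and 312 (changes 0.75 ± 0.14 and -0.90 ± 0.14). Pygm made up 83% ± 2.23, 26.9% ± 9.01 and 95.3% ± 1.51 of the family per kilobase. The log2 ratio Pygm/Pygb was 1.78 ± 0.27, -2.07 ± 0.72 and 3.85 ± 0.49 (exact permutation test, adjusted p = 0.00857). Pygl, the liver form, had 4, 33 and 30, then 2, 4 and 1, then 11, 17 and 6. Its stages are low and freshly isolated replicate 1 overlapped the later ones, and Pygm/Pygl was the pair that was not called (adjusted p = 0.0679 by the exact permutation test).

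Gys1 and Gyg, genes of glycogen building, rose at both steps. Gys1, muscle glycogen synthase, had 298, 289 and 368, then 1521, 1870 and 2086, then 3002, 2816 and 3514 (changes 2.51 ± 0.15 and 0.77 ± 0.15, adjusted p = 1.5e-07 and 0.0012). Gyg, glycogenin, the primer of glycogen chains, rose 37.4-fold from freshly isolated cells to myotubes, from 36.3 ± 3.51 to 164 ± 16.7 and 1402 ± 197. Gbe1, the branching enzyme, did not rise with them, at 799 ± 169, 711 ± 43.7 and 439 ± 18.9, and fell at fusion (-0.70 ± 0.15, adjusted p = 0.0031). Gys1 overlaps Ruvbl2 on the opposite strand.

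Regulators of glycogen breakdown and synthesis did not follow a single course. Ppp1r3a (chromosome 6, 14713977 to 14755274), the muscle subunit that brings protein phosphatase 1 to glycogen, had 0, 0 and 1, then 0, 1 and 0, then 2345, 1964 and 2869. No fold is given, because the earlier values are at the limit of detection. Ppp1r3c, a related targeting subunit of several tissues, had 0, 6 and 5, then 0, 1 and 2, then 287, 203 and 295. For both, every myotube library lay above every earlier one, as the filter on low values requires of genes this low before fusion. Phkg1, the catalytic subunit of muscle phosphorylase kinase, had 85, 191 and 106, then 10, 6 and 6, then 24, 28 and 39, and it fell by 3.89 ± 0.39 and rose by 1.92 ± 0.39 (adjusted p = 8.3e-06 and 0.0021), or by 2.92 and 1.21 with a pseudocount of 10. It was the 1 tested muscle form called lower in myotubes than in fresh cells (-1.98 ± 0.39). It overlaps Sumf2 and Chchd2. Phka1, its muscle regulatory subunit, varied little, at 696 ± 12.4, 534 ± 12.2 and 762 ± 23.2. The first fall of Phka1 (-0.38 ± 0.09) was not called with libraries rescaled to equal totals (-0.08, adjusted p = 0.58).

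Both cytosolic creatine kinases rose at fusion, Ckb from a level it had already gained in dividing cells. Ckm (chromosome 7, 19404776 to 19422841), the muscle form, had 24, 27 and 73, then 14, 94 and 57, then 3891, 2892 and 4579. The earlier stages overlapped (0.22 ± 0.62, adjusted p = 0.76), and the rise at fusion was 6.42 ± 0.62 (adjusted p = 1.6e-05), or 5.65 without proliferating replicate 1. Ckb, the brain form, which many embryonic cells also use, had 303, 192 and 243, then 601, 900 and 867, then 3939, 4318 and 4442 (changes 1.68 ± 0.19 and 2.44 ± 0.19, adjusted p = 1.8e-05 and 4.2e-06). Ckb thus rose alongside Ckm, and in myotubes the pair stood near balance, with Ckm at 46.7% ± 5.86 per kilobase against 14.2% ± 8.02 and 5.93% ± 3.57 before. The log2 ratio Ckm/Ckb was -2.70 ± 0.94, -4.16 ± 1.06 and -0.18 ± 0.34 (exact permutation test, adjusted p = 0.0107). Ckmt2, the sarcomeric mitochondrial form, had 0, 8 and 69, then 2, 1 and 2, then 1879, 1076 and 2331. The myotubes were far above the earlier libraries, which the filter again requires, and the fresh cells differed among themselves. Ckmt1, the ubiquitous mitochondrial form, had 0, 0 and 1, then 0, 3 and 0, then 1, 3 and 2, so the ratio Ckmt2/Ckmt1 is that of Ckmt2 to a gene near 0 (exact permutation test, adjusted p = 0.0171).

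Adenylate genes gained with it. Ak1 (chromosome 2, 32621758 to 32635058), the cytosolic adenylate kinase of muscle, had 81, 8 and 35, then 378, 652 and 692, then 9465, 7727 and 10522, rising by 4.22 ± 0.63 and 4.04 ± 0.63 (adjusted p = 0.00014 and 0.00035). The first value was 4.95 without freshly isolated replicate 1 and 3.35 without replicate 2, and the total change of 8.26 was 8.99 and 7.40. Ampd1, the AMP deaminase of muscle, followed the course of Pygm, with 54, 120 and 87, then 0, 5 and 8, then 526, 330 and 515. It fell by 4.47 ± 0.70 and rose by 6.89 ± 0.70 (adjusted p = 0.00022 and 2.2e-05). With a pseudocount of 10 these were -2.74 and 5.04. They were -3.51 and 5.93 without proliferating replicate 1, which was at 0, and -5.09 and 7.52 without replicate 3. In myotubes it was 2.42 ± 0.70 above fresh cells (adjusted p = 0.0093). Of the side reactions, Gpd1, the glycerol-3-phosphate dehydrogenase of the NAD shuttle, had 100, 80 and 100, then 24, 13 and 12, then 58, 30 and 61 (changes -2.50 ± 0.38 and 1.55 ± 0.38, adjusted p = 0.00015 and 0.0057). Fbp2, the muscle fructose bisphosphatase, was at 0 or 1 before fusion and at 6, 3 and 7 in myotubes, too low to test.

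**Figure D5:**
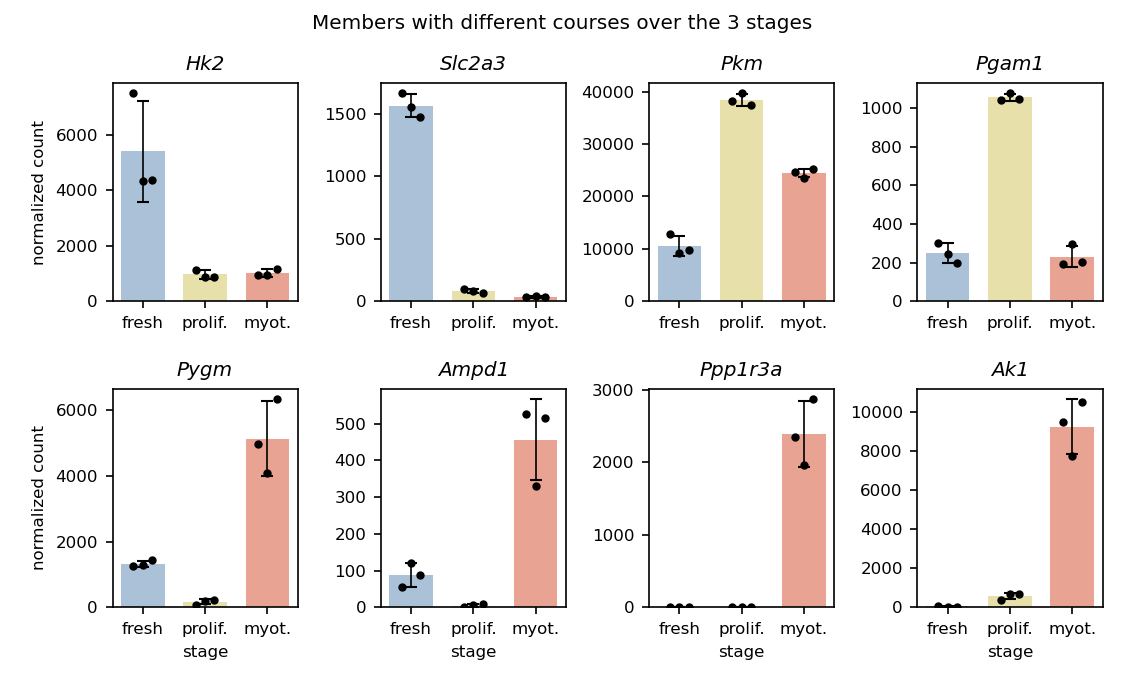
Normalized counts of 8 members by stage (fresh, freshly isolated; prolif., proliferating; myot., myotubes); bars are means, error bars SD (n = 3) and points libraries. Hk2 and Slc2a3 are highest in freshly isolated cells, Pkm and Pgam1 in proliferating cells, Pygm and Ampd1 dip in proliferating cells, and Ppp1r3a and Ak1 are highest in myotubes.

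By role, the members divided as follows. From proliferating cells to myotubes 28.6% of all genes rose and 25.5% fell. Leaving out the genes that reached the filter only with myotubes, all 4 of the phosphocreatine and adenylate group rose, as did 5 of 7 glycogen genes and 7 of 11 genes from aldolase to pyruvate kinase, whereas of the 3 uptake genes 1 rose and 2 fell, of the 6 upper glycolysis genes 2 rose and 3 fell, and of the 4 PFKFB genes 2 fell. Between freshly isolated cells and myotubes 9 of the 11 genes from aldolase to pyruvate kinase were higher and 0 lower (40.2% and 37.3% of all genes), with a median log2 change of 2.87, while the uptake and upper glycolysis groups had medians of -1.48 and -0.88. In this comparison Slc2a4, Gpi1 and Pfkm were the genes before aldolase that were higher, and Slc2a1, Slc2a3, Hk1, Hk2 and Pfkp were lower.

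Among 57 further genes of these pathways outside the set, 52 were tested. From freshly isolated to proliferating cells 22 rose and 19 fell (37.6% and 35.7% of all genes), led by Pdk3 (4.26), a kinase that restrains pyruvate dehydrogenase, Gatm (4.03), the first enzyme of creatine synthesis, and Gpd2 (3.62), the mitochondrial partner of Gpd1. The largest falls were those of Hk3 (-4.69), Pck1 (-4.20) and Hkdc1 (-3.84), all low genes with stage means of at most 52.7. From proliferating cells to myotubes 26 rose and 12 fell (28.6% and 25.5% of all genes). Ppp1r3b (3.66), another phosphatase targeting subunit, Pdp1 (3.13) and Pdk1 (3.03) rose most, and Pck2 (-1.69), Ampd2 (-1.63), the non-muscle AMP deaminase, and Ppp1r3e (-1.62) fell most. Between myotubes and freshly isolated cells 31 were higher and 15 lower (40.2% and 37.3% of all genes), with Gatm (6.53), Pgm2 (5.74) and Got1 (4.28) at the top and Pck1 (-5.20), Hk3 (-5.17) and Hkdc1 (-3.75) at the bottom. The median log2 change of these genes was -0.05, 0.89 and 1.45 in the 3 comparisons, beside 0.11, 0.71 and 1.57 for the 44 tested members.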

How the data were processed

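RNA sequencing of 9 libraries was read from the gene table deposited by the authors. Its score values are read counts that the authors scaled between libraries and rounded, and how they scaled them is not given in the sources. STAR 2.4.0a, featureCounts 1.4.5-p1 and the builds mm10 and GRCm38 are listed in the submitters' processing notes. RiboGone depletion of 100 ng of total RNA and the SMARTer Stranded kit come from the labels' protocols. The 3 Q columns were taken as freshly isolated by elimination. Count tests do not suit scaled, rounded values, so log2(value + 1) was fitted with limma 3.58.1 (R 4.3.3, mean-variance trend) on all libraries. The 17291 genes that reached 10 in 3 or more libraries were kept, and calls were made below 0.05 after Benjamini-Hochberg adjustment. A log2 change understates the change of low genes because of the added 1. The model was tested on simulated data. Isoform ratios were tested by exact permutation (Python 3.11.15, scipy 1.17.1). Reads per library were estimated from the step between low values (1 read at 0.748 to 2.18 units). Positions and exonic lengths are from GENCODE vM21 (46 of 46 members), promoters from RefSeq, near-identical copies (90% over 300 bases) from blastn 2.17.0. The members, pairs and lists were chosen with earlier results of these data known. Values in every library are given for the genes of the pairs and for the 6 largest called rises and falls of each comparison, and of the further pathway genes the 3 largest each way are named. Alternatives were another pseudocount, other filters, 3 other scalings, no trend, 6 libraries, a replicate block and each library left out.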

Additional observations from a re-analysis of the deposited data

How the results depend on the processing

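No member change that was called reversed in any alternative, and the 9 muscle forms that reached the filter without myotubes stayed called higher in myotubes than in proliferating cells in each of them. Of 107 called member changes, 8 lost the call without some 1 library and 9 in another planned setting. They were Aldoc, Gpd1 and Slc16a3 between myotubes and freshly isolated cells, Eno1, Eno2, Gpi1, Hk1, Pfkfb1 and Pfkfb3 at fusion, and Pfkfb2 and Phka1 at the first step. The fusion change of Gpi1 was 0.10 and that of Eno2 0.72 with libraries rescaled to equal totals (adjusted p = 0.53 and 0.095), and the change of Gpd1 between myotubes and fresh cells was -0.63 without myotube replicate 2 (adjusted p = 0.15) and that of Slc16a3 -0.68 with equal totals (adjusted p = 0.06). Rescaling to equal totals moved the median change of all genes from 0.07 to 0.35, from 0.04 to -0.12 and from 0.10 to 0.22, and the split of all genes at fusion from 4951 higher and 4402 lower to 3918 and 4990. Quantile normalization moved the median at fusion to -0.10. Member counts ranged over the alternatives from 20 to 21 higher and 14 to 19 lower at the first step, 22 to 27 and 8 to 13 at fusion, and 23 to 25 and 9 to 16 between myotubes and fresh cells. Counts over the genes that reached the filter without myotubes were added after seeing the data. Counts without freshly isolated and proliferating replicate 1, also added then, were 20 and 19, 27 and 13, and 23 and 14.

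Replicate numbers did not pair the libraries (correlations of deviations -0.0338 to 0.0270 for equal numbers). With the number as a block, 20 and 16, 26 and 10, and 23 and 11 members were higher and lower. Under this block the permutation test over the 3 stages no longer called Ckmt2/Ckmt1 (adjusted p = 0.067), Pgam2/Pgam1 (0.067) and Slc2a4/Slc2a1 (0.12), whose differences at fusion are 8.46, 6.61 and 5.45. The block leaves 216 arrangements, against 1680 in the main test. Its lowest permutation p over the pairs was 0.0278 (adjusted 0.0417), against 0.00357 in the main test. The cause of the lost calls was not tested. Pygm/Pygl, not called at 3.14, was called with a pseudocount of 10 (4.17), with quantile normalization (3.19), without freshly isolated replicate 1 and without both first replicates (2.70). Leaving out 1 library moved it from 2.62 to 3.72. Filter, trend and 6-library settings do not bear on the ratios and were not run for them. Genes near 1 read, among them Ppp1r3a, Ckmt1, Fbp2 and Pygl, are limited by depth.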

Other observations

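Of 13 genes of pyruvate entry into mitochondria (carriers, enzyme subunits and the kinases and phosphatases that set the enzyme's activity), all tested, 9 rose from proliferating cells to myotubes, 1 fell and 3 were not called, against 28.6% of all genes higher and 25.5% lower. Among the carriers and subunits Mpc1, Mpc2, Pdha1, Pdhb, Pdhx and Dld rose and Dlat was not called, and among the regulators Pdp1 and the inhibitory kinases Pdk1 and Pdk2 rose. The genes named in this paragraph and the next were chosen after their values were seen. Pdha1, the catalytic subunit of pyruvate dehydrogenase, went from 1822 to 3999 and 14521 mean normalized counts and rose by 1.86 ± 0.15 at fusion, and Pdhb rose by 2.32 ± 0.21. The pyruvate carrier subunits Mpc1 and Mpc2 rose by 2.55 ± 0.36 and 1.78 ± 0.19. Kinases that switch the enzyme off did not share 1 course. Pdk4 fell at each step, from 6442 to 1904 and 1087, Pdk1 and Pdk2 rose at fusion, and Pdk3 was called at the first step but not at fusion.

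Of 16 further glycogen genes tested, 10 rose at fusion, 3 fell and 3 were not called, beside the same shares of all genes. Stbd1, a glycogen-binding protein, went from 528 to 1575 and 5185 mean normalized counts, and Ugp2, which makes UDP-glucose, from 975 to 666 and 4605. Phkb, the shared subunit of phosphorylase kinase, rose by 2.52 ± 0.11. Of the phosphoglucomutase genes, under the symbols of the deposited table, Pgm2 rose by 2.48 ± 0.24 at fusion and Pgm1 fell by 0.80 ± 0.14. Of 10 further creatine and adenylate genes, all tested, 2 rose at fusion, 5 fell and 3 were not called. The 2 were the creatine synthesis genes Gatm and Gamt, which rose by 2.49 ± 0.22 and 2.95 ± 0.31, while the creatine transporter Slc6a8 fell by 1.12 ± 0.09. Of the AMP deaminases, Ampd3 fell by 2.31 ± 0.21 at the first step together with Ampd1. At fusion Ampd3 fell again, by 0.89 ± 0.21, and Ampd2 fell by 1.63 ± 0.10, where Ampd1 rose.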
